A study of Mus musculus with 10 samples.

Results

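The coagulation and plasminogen genes described here are *F3*, *F7*, *F10*, *F5*, *F13a1*, *Pf4*, *Thbd*, *Plau* and *Plaur*. They are 9 of the 55401 gene rows in the count tables. With earlier results of these data known, they were chosen by symbol for their roles in clotting and in the breakdown of clots. They were measured by bulk RNA sequencing in 10 subcutaneous tumors of the mouse melanoma line B16F10. In 5 tumors the injected cells were *Mir25* KO, edited by CRISPR-Cas9 at the gene for miR-25, and in the other 5 they carried a non-targeting control (NTC). The tumors grew in female C57BL/6J mice aged 9 to 12 weeks. Every mouse in both groups received Comb, which joins GVAX (irradiated B16 cells that secrete GM-CSF, given on days 1 and 4) to an antibody against PD-1 (αPD-1, 10 mg/kg on days 6, 9 and 12). All tumors were taken on day 15. The study describes knockout and control lines made with a lentiviral CRISPR-Cas9 vector, and single-cell clones made by electroporating Cas9 protein with guides. The sources used here do not tie these tumors to 1 guide or say whether the cells were a clone. The comparison asks how the tumors as a whole, tumor cells and host cells together, differ when *Mir25* has been edited in the injected cells. The edits lower mature miR-25, and these counts do not measure how far.

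Coagulation in tissue starts when factor VII meets tissue factor, the membrane protein encoded by *F3*. The complex activates factor X, which with its cofactor factor V releases thrombin. Thrombin cuts fibrinogen to fibrin, factor XIII crosslinks the fibrin, and thrombomodulin binds thrombin and redirects it to activate the anticoagulant protein C. Fibrin is removed by plasmin, which the urokinase protease (*Plau*), held at the cell surface by its receptor (*Plaur*), makes from plasminogen. The liver is the main source of most clotting factors in plasma, while macrophages can transcribe several of these genes and tumor cells often carry tissue factor.

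The mature miRNA whose gene was edited in the KO cells is shown because it defines the groups. Its RefSeq sequence lies on the minus strand of GRCm38.p6 at chr5:138165332-138165353, and capitals mark the seed, bases 2 to 8.
miR-25-3p: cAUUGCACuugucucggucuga
The letters that pair with this seed, GTGCAAT, were searched in the longest annotated 3′ UTR of each gene. They occur in 0 of the 9 genes and in 1379 of 21045 genes with a 3′ UTR (6.553%), so none of the 9 holds it there.

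*F7* and *F10* are neighbours on the plus strand of chromosome 8. In GENCODE M21 on GRCm38, *F7* covers chr8:13026034-13035809 and *F10* covers chr8:13037308-13056676, with 1498 bases between them. The other genes lie at chr3:121723537-121735048 (*F3*, plus strand), chr1:164151838-164220277 (*F5*, plus), chr13:36867178-37050244 (*F13a1*, minus), chr5:90772435-90773383 (*Pf4*, plus), chr2:148404466-148408188 (*Thbd*, minus), chr14:20836660-20843385 (*Plau*, plus) and chr7:24462484-24475968 (*Plaur*, plus). All 9 are protein-coding. Exons of *F13a1* and *F5* overlap a predicted gene on the other strand over 74 and 262 bases. The strand setting of the counting is not given in the sources used here, so reads in those overlaps cannot be assigned by strand.

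RefSeq promoters on GRCm38.p6, 250 bases before to 50 after a gene's start, were matched for 7 of the 9 genes. The 250 bases before the start are printed for *F7* and *F10*, the neighbours whose levels are compared below. They are also printed for *F3* and *Plaur*, which share an AP-1 match. Capitals mark matches, on either strand, to the letters of AP-1 (TGACTCA), Sp1 (GGGCGG), a PU.1 core (GAGGAA) or a TATA element (TATAAA), and Sp1 matches overlap each other in *Plaur*. All 4 sequences run 5′ to 3′ on the plus strand, at chr8:13025784-13026033, chr8:13037058-13037307, chr3:121723287-121723536 and chr7:24462233-24462482.
F7: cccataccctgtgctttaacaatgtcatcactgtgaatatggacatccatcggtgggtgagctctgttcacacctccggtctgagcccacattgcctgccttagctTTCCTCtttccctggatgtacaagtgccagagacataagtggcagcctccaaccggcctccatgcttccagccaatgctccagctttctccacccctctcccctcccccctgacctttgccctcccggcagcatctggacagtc
F10: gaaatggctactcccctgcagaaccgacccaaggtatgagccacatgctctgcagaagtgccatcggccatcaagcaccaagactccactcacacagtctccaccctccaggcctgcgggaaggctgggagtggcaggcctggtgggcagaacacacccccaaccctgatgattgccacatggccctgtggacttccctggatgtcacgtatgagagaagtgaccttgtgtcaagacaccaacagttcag
F3: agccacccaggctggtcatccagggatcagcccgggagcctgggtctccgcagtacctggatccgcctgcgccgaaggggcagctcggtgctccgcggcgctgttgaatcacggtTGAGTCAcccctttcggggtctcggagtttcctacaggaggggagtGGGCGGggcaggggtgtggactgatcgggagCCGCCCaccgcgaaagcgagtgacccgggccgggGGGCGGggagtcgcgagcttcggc
Plaur: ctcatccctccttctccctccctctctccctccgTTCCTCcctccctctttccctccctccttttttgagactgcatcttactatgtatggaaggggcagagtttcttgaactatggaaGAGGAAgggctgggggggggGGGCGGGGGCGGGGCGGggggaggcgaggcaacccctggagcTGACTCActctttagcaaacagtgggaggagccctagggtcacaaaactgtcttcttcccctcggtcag
AP-1 letters occur in *F3* and *Plaur* and in 5.202% of all 32851 promoters of this length. Sp1 letters occur in *F3*, *F5* and *Plaur* (35.658% of all promoters) and PU.1 core letters in *F7*, *Pf4*, *F13a1* and *Plaur* (28.276%). The TATA letters occur in *F3* alone among the 7 (13.616%), in the 50 bases after the start that are not printed. *F7* and *F10* share none of the 4 motifs, and none was found in *F10*.

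Reads on genes ran from 23243707 to 27006075 in the KO libraries and from 11896643 to 28682130 in the NTC libraries. The shallowest library, NTC replicate 1, stands apart from the other 9. It had 42.9% of its listed reads outside genes, against 17.5% to 28.2%, and 33193 genes with at least 1 read, against 22192 to 25435. Values are normalized read counts scaled to library size (CPM), and the comparisons of the 9 genes are given over all 10 tumors and over the 9 tumors without this library. Melanoma genes (*Pmel*, *Mlana*, *Tyr*, *Dct*, *Tyrp1* and *Sox10*) summed to between 10825 and 20540 CPM in each tumor, so the labelled tumor type carries its markers. Hepatocyte genes (*Alb*, *Apoa1*, *Fgb* and *Ahsg*) summed to at most 0.312 CPM in any tumor. Reads carry no molecular identifiers, and the labels do not say that replicates of a group come from separate mice, so p-values measure the spread between these tumors.

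In all 10 tumors each of the 9 genes was detected, and the highest tumor was 2.63 to 61.2 times the lowest. *F3* stood apart from the rest: it was lower in KO than in NTC tumors with and without NTC replicate 1, by about the same size. For 5 genes, *F7*, *F10*, *Pf4*, *Thbd* and *Plaur*, KO tumors were higher by edgeR at an unadjusted p under 0.05 once NTC replicate 1 was left out, as were 12% of all genes. No gene of the 9 passed edgeR's quasi-likelihood test at a Benjamini-Hochberg adjusted p under 0.05, over 10 tumors or over 9. DESeq2 over 9 tumors, a fit added after seeing the data, passed 4 of them as higher, as it did 4.61% of all genes.

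**Figure D1:**
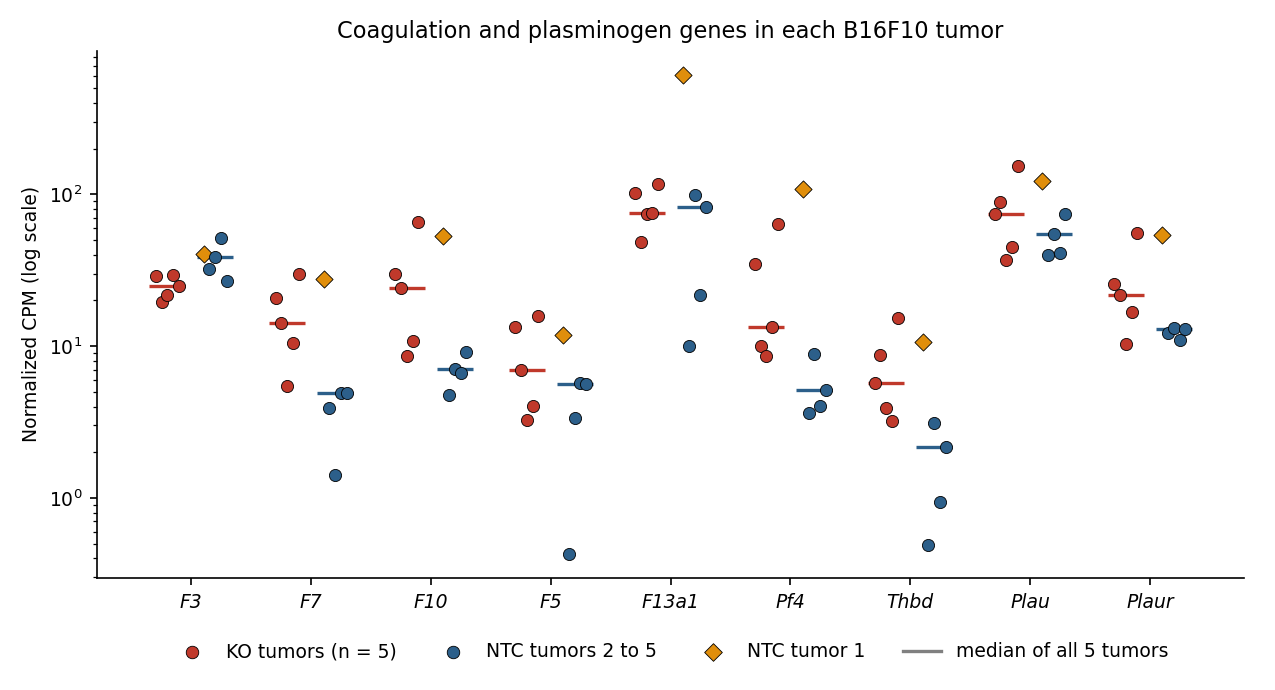
Normalized CPM on a log axis for each of the 9 genes in each tumor, with KO tumors in red, NTC tumors 2 to 5 in blue and NTC tumor 1 as an orange diamond. Lines mark the median of all 5 tumors of a group. NTC tumor 1 is the highest NTC tumor for every gene but *F3*, and reaches 612 CPM for *F13a1*.

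Levels can be compared between genes only per length of exon. In KO tumors the mean CPM per kilobase was 36.3 ± 32.9 (SD, n = 5) for *Pf4* and 33.6 ± 19.5 for *Plau*. These highest levels differed by less than their spread. *F13a1* (12.4 ± 3.96), *F10* (10.2 ± 8.36), *Plaur* (9.90 ± 6.66), *F3* (9.86 ± 1.74) and *F7* (8.69 ± 5.10) followed without separating beyond their SDs. *Thbd* (1.99 ± 1.33) and *F5* (1.17 ± 0.76) were lowest, in KO as in NTC tumors. Over all 5 NTC tumors *Pf4* (35.8 ± 63.4), *Plau* (28.1 ± 14.5), *F13a1* (24.5 ± 37.5) and *F3* (14.99 ± 3.63) were highest, without separating beyond their SDs. In NTC replicates 2 to 5 *Plau* led with 22.2 ± 6.71 CPM per kilobase (SD, n = 4), followed by *F3* with 14.8 ± 4.15. *F13a1* (7.91 ± 6.55) and *Pf4* (7.50 ± 3.26) came next, and did not differ beyond their spread.

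*F3*, the receptor for factor VII that starts coagulation, was at 29.1, 19.5, 21.7, 29.3 and 25.0 CPM in KO replicates 1 to 5. In NTC replicates 1 to 5 it was at 40.1, 32.2, 38.7, 51.3 and 27.0 CPM. The groups overlapped only through NTC replicate 5: the other 4 NTC tumors were above every KO tumor. The log2 fold change of KO over NTC was -0.60 (SE 0.18), with an adjusted p of 0.313 by edgeR. Without NTC replicate 1 it was -0.61 (SE 0.20), with an adjusted p of 0.178 by edgeR. Leaving out any other single tumor gave values between -0.70 and -0.47. *F3* was the steadiest of the 9 genes, with its highest tumor 2.63 times its lowest, against 4.13 to 61.2 times for the others. The melanoma genes summed to 11273 to 18280 CPM in KO tumors and 18106 to 20540 CPM in NTC replicates 2 to 5. NTC replicate 1 had the least, 10825 CPM, with 40.1 CPM of *F3*. At an unadjusted p under 0.05 by edgeR 0 of the 6 genes were lower over 10 tumors (4.85% of all genes) and 2 over 9 (8.1%). *Mlana* was slightly higher in KO tumors over 10 tumors, at a log2 fold change of 0.11. The part of the melanoma genes in the *F3* values was not tested.

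*F7* encodes the protease zymogen that tissue factor captures. It was at 20.8, 14.2, 5.42, 10.5 and 29.8 CPM in KO replicates 1 to 5, and at 27.6, 3.91, 1.42, 4.92 and 4.89 CPM in NTC replicates 1 to 5. Every KO tumor lay above NTC replicates 2 to 5, the closest pair being 5.42 in KO replicate 3 and 4.92 in NTC replicate 4, while NTC replicate 1 was above all KO tumors but 1. Over 10 tumors the log2 fold change was 0.97 (SE 0.73), with an adjusted p of 0.733 by edgeR. Over 9 tumors it was 2.05 (SE 0.51), with an adjusted p of 0.135 by edgeR. Without KO replicate 5 but with NTC replicate 1 kept in, it was 0.63.

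*F10* encodes the zymogen that the tissue factor and factor VII complex activates. It was at 29.8, 24.2, 8.56, 10.8 and 65.3 CPM in KO tumors and at 53.5, 4.76, 7.10, 6.63 and 9.16 CPM in NTC tumors. KO replicate 5 and NTC replicate 1 were the highest tumors, and KO replicate 3 fell below NTC replicate 5. On the log2 scale the fold change was 0.81 (SE 0.77, adjusted p 0.779 by edgeR) over 10 tumors and 1.96 (SE 0.55, adjusted p 0.150 by edgeR) over 9. Without KO replicate 5 but with NTC replicate 1 kept in, it was 0.22. Pearson's r between *F7* and *F10* was 0.90 over the 10 log2 CPM values and 0.88 over 9, points that share library depth and cell content. It was not particular to this pair: *F10* had r of 0.96 with *Plaur*, 0.93 with *Pf4*, 0.91 with *Plau* and 0.90 with *Thbd* over 10 tumors, and *F7* ranked 803 among the genes most like *F10*. The ratio of *F10* to *F7* in each tumor did not separate the groups, with a log2 difference of -0.28 over 10 tumors (two-sided exact permutation p = 0.500) and -0.27 over 9 (p = 0.603).

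*F5*, the cofactor of factor X, was at 13.3, 6.95, 3.27, 4.00 and 15.9 CPM in KO tumors and at 11.9, 0.427, 3.38, 5.73 and 5.62 CPM in NTC tumors. The low value of NTC replicate 2 rests on 13 reads. KO replicates 3 and 4 lay among the NTC tumors, and the groups overlapped widely. KO over NTC came to a log2 fold change of 0.71 (SE 0.70, adjusted p 0.786 by edgeR) over 10 tumors and 1.16 (SE 0.68, adjusted p 0.358 by edgeR) over 9. Without KO replicate 5 but with NTC replicate 1 kept in, it was 0.38.

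*F13a1* encodes the catalytic subunit of factor XIII, which crosslinks fibrin, and is known from platelets and from macrophages. KO tumors were at 102, 48.7, 74.4, 75.4 and 117 CPM, and NTC tumors at 612, 10.0, 99.2, 21.6 and 82.5 CPM. NTC replicate 1 was 11.5 times the mean of the other NTC tumors, and the other NTC tumors ranged below and among the KO values. The direction turned with that library: the log2 fold change was -0.97 (SE 0.89, adjusted p 0.773 by edgeR) over 10 tumors and 0.62 (SE 0.57, adjusted p 0.553 by edgeR) over 9.

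*Pf4* encodes a chemokine stored in platelets that macrophages also transcribe. It was at 34.8, 10.0, 8.62, 13.3 and 64.1 CPM in KO tumors and at 107.5, 3.64, 8.80, 4.03 and 5.17 CPM in NTC tumors. Among NTC replicates 2 to 5 only replicate 3 reached a KO value, and NTC replicate 1 was 19.9 times their mean. On the log2 scale KO over NTC was 0.06 (SE 1.03, adjusted p 0.991 by edgeR) over 10 tumors and 2.23 (SE 0.63, adjusted p 0.151 by edgeR) over 9. Without KO replicate 5 but with NTC replicate 1 kept in, it was -0.58. Platelet genes (*Itga2b*, *Gp9*, *Gp6*, *Gp5*, *Ppbp*, *Treml1* and *Clec1b*) summed to 0.90 to 4.94 CPM in KO tumors, to 1.14 to 1.67 in NTC replicates 2 to 5 and to 10.2 in NTC replicate 1. Their part in the *Pf4* values was not tested.

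*Thbd* encodes thrombomodulin, known from endothelium and from myeloid cells. KO tumors were at 5.74, 8.73, 3.91, 3.21 and 15.4 CPM and NTC tumors at 10.6, 0.492, 3.09, 0.935 and 2.15 CPM. The NTC values of replicates 2, 4 and 5 rest on 15, 23 and 62 reads. Every KO tumor lay above NTC replicates 2 to 5, and the closest pair, 3.21 and 3.09 CPM, was almost level. The log2 fold change was 1.16 (SE 0.76, adjusted p 0.690 by edgeR) over 10 tumors, the highest of the 9 genes, and 2.10 (SE 0.61, adjusted p 0.157 by edgeR) over 9. Without KO replicate 5 but with NTC replicate 1 kept in, it was 0.71.

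*Plau*, the urokinase protease, was at 73.7, 88.7, 37.0, 45.0 and 153 CPM in KO tumors and at 123, 40.1, 54.8, 41.0 and 74.0 CPM in NTC tumors. Its groups overlapped on both sides. The log2 fold change was 0.26 (SE 0.42, adjusted p 0.876 by edgeR) over 10 tumors and 0.56 (SE 0.38, adjusted p 0.424 by edgeR) over 9. *Plaur*, the receptor that holds urokinase at the cell surface, was at 25.7, 21.6, 10.3, 16.7 and 55.3 CPM in KO tumors and at 53.7, 12.3, 13.2, 10.9 and 12.9 CPM in NTC tumors. NTC replicates 2 to 5 lay close together, 4 KO tumors were above all of them, and KO replicate 3 was below all of them. Its log2 fold change was 0.35 (SE 0.55, adjusted p 0.874 by edgeR) over 10 tumors and 1.03 (SE 0.40, adjusted p 0.212 by edgeR) over 9. Without KO replicate 5 but with NTC replicate 1 kept in, both turned slightly negative, to -0.11 for *Plau* and -0.12 for *Plaur*.

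**Figure D2:**
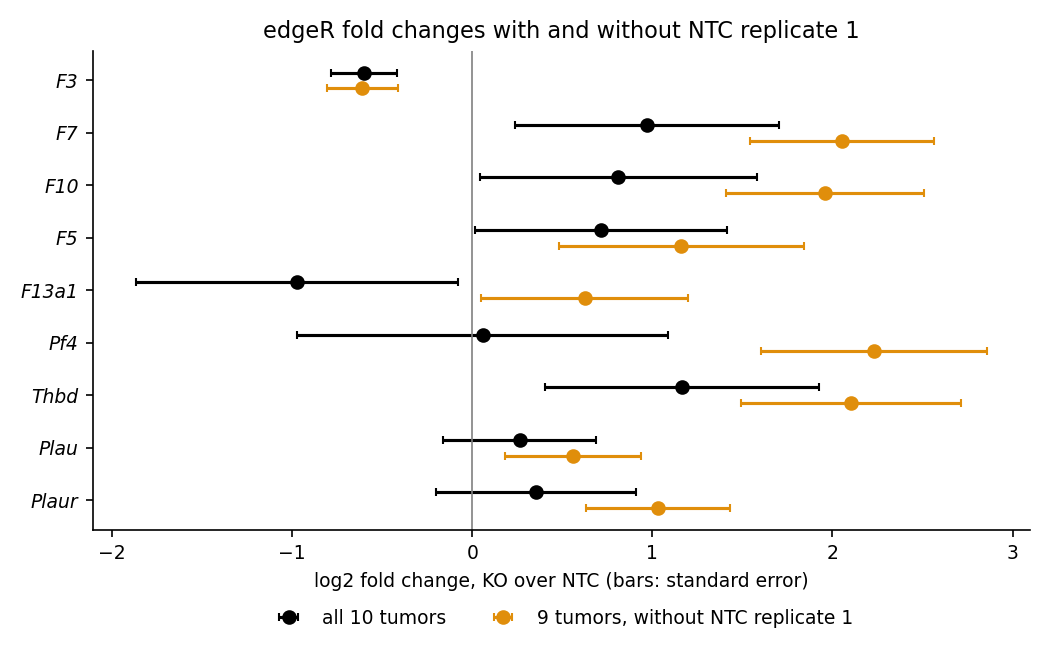
Log2 fold change of KO over NTC tumors with its standard error from edgeR, for all 10 tumors (black) and for the 9 tumors without NTC replicate 1 (orange). *F3* keeps its place at -0.60 and -0.61, *F13a1* crosses from -0.97 to 0.62, and *Pf4* moves from 0.06 to 2.23.

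Read against all genes tested, the counts differ between the designs. The 9 genes were chosen with earlier results of these data known, so the shares are printed as a description. Over 10 tumors, 0 of the 9 genes passed the adjusted p by edgeR, as 0.0316% of the 15821 genes tested did. At an unadjusted p under 0.05, 0 of 9 were higher in KO tumors (3.99% of all genes) and only *F3* was lower (4.85%). No gene of the 9 had all KO tumors above all NTC tumors (0.866% of all genes) or below them (1.47%). Over 9 tumors, 0 of 9 passed the adjusted p by edgeR (0.193% of 16078 genes), 5 were higher at an unadjusted p under 0.05 (12% of all genes) and *F3* was lower (8.1%). *F7* and *Thbd* had every KO tumor above NTC replicates 2 to 5 (2.71% of all genes), and 0 of 9 had every KO tumor below (3.59%). The median log2 fold change of the 9 genes was 0.35 over 10 tumors, beside 0.01 for all genes, and 1.16 over 9 tumors, beside -0.02. DESeq2 over the same 9 tumors, a fit chosen after seeing the data, gave adjusted p-values of 0.00176 for *F7*, 0.00576 for *F10*, 0.00414 for *Pf4* and 0.00943 for *Thbd*. In that fit these 4 of the 9 genes were higher at an adjusted p under 0.05, against 4.61% of all genes, while DESeq2 over 10 tumors called 0 of the 9. In either direction 7.13% of all genes passed that adjusted p, and at an unadjusted p 14.6% were higher and 22.5% passed in either direction.

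Most of the 9 genes varied together between tumors, with *F3* apart and *F13a1* less close to some. Leaving *F3* aside, Pearson's r of *F13a1* with the others ran from 0.50 (*F7*) to 0.83 (*Pf4*) over 10 tumors. Over 9 tumors it ran from 0.32 (*F7*) to 0.80 (*Thbd*). KO replicate 5 was the highest KO tumor for 8 of the 9 genes and the highest of all 10 tumors for 6. NTC replicate 1 was the highest NTC tumor for 8 of them, and NTC replicate 2 was the lowest of all tumors for 5. KO replicate 5 and NTC replicate 1 were also among the 4 tumors with the most leukocyte RNA. The pan-leukocyte genes (*Ptprc*, *Laptm5*, *Coro1a*, *Cd53*, *Cd52* and *Arhgdib*) summed to 533 to 2007 CPM in KO tumors, to 355 to 769 in NTC replicates 2 to 5 and to 1537 in NTC replicate 1. *Arhgdib* among them was nearly level, at 205 to 271 CPM over the 10 tumors, and it enters both this sum and the fit described below. In bulk tumors, fewer cells of a type and less RNA per cell cannot be told apart. Macrophage genes (*Cd68*, *Csf1r*, *Adgre1*, *Mrc1*, *C1qa*, *C1qb* and *C1qc*) summed to 903 to 3934, 291 to 1284 and 3329 CPM in the same order, and at an unadjusted p under 0.05 by edgeR 0 of 7 were higher in KO tumors over 10 tumors (3.99% of all genes) and 7 of 7 over 9 (12%). Endothelial genes (*Pecam1*, *Cdh5*, *Kdr*, *Tek*, *Emcn* and *Tie1*) summed to 70.3 to 153, 39.9 to 108 and 203 CPM, and fibroblast genes (*Col1a1*, *Col1a2*, *Pdgfra*, *Dcn* and *Lum*) to 414 to 2384, 28.2 to 631 and 2192 CPM. No gene of these 4 lists was at 0 in all tumors. Neutrophil genes (*S100a8*, *S100a9*, *Csf3r*, *Cxcr2* and *Retnlg*) summed to 9.59 to 58.0, 3.12 to 13.98 and 102 CPM in that order, and monocyte genes (*Ly6c2*, *Ccr2*, *Chil3* and *Plac8*) to 76.3 to 381, 41.4 to 138 and 289 CPM. Of the tested pan-leukocyte, endothelial, fibroblast, neutrophil and monocyte genes, 0 were higher over 10 tumors at that unadjusted p (3.99% of all genes). Over 9 tumors 4 of 6, 1 of 6, 2 of 5, 3 of 4 and 1 of 4 were higher (12% of all genes). Skeletal muscle genes (*Acta1*, *Ckm*, *Myh4* and *Tnnt3*) reached 150 CPM in KO replicate 4 and 27.8 in KO replicate 3, and keratinocyte genes (*Krt5*, *Krt14*, *Krt10* and *Krt1*) 17.5 CPM in KO replicate 3, against at most 1.62 and 1.48 in any NTC tumor. The part of the fibroblast, neutrophil, monocyte, skeletal muscle and keratinocyte genes in the values of the 9 genes was not tested. The pan-leukocyte genes enter a fit described next, and the macrophage and endothelial sums enter ratios with *F13a1*, *Pf4* and *Thbd*.

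**Figure D3:**
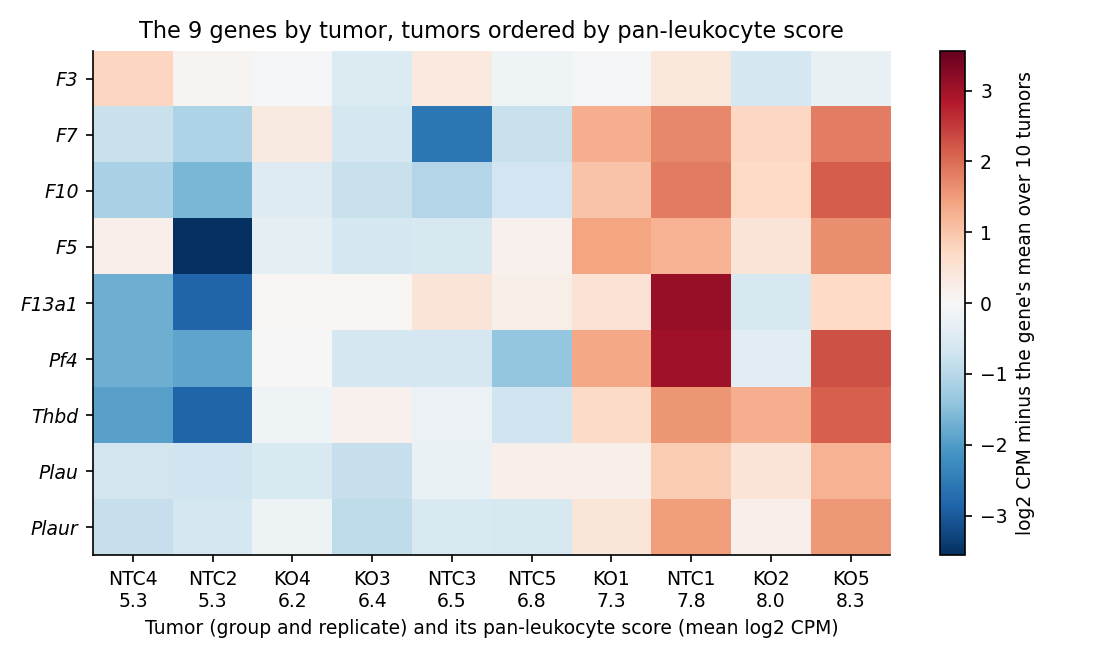
Log2 CPM of each gene minus its mean over the 10 tumors, with tumors ordered by their pan-leukocyte score, the mean log2 CPM of the 6 pan-leukocyte genes, printed under each tumor. Red is above and blue below the gene's mean. The 4 tumors with the highest scores, KO1, NTC1, KO2 and KO5, hold most of the red cells, and the *F3* row is palest.

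A fit with this pan-leukocyte score as a covariate was run beside the main fit. Over 10 tumors the log2 fold change of *F3* went from -0.60 to -0.52, and that of *F10* fell to -0.02. *F7* went to 0.42, *Thbd* to 0.45, *F5* to 0.02 and *Pf4* to -0.29. *F13a1* went from -0.97 to -0.76. *Plau* turned to -0.41, past an unadjusted p of 0.05 but with an adjusted p of 0.284 by edgeR, and *Plaur* to -0.28. At that unadjusted p 0 of the 9 genes were higher (6.52% of all genes) and *F3* and *Plau* were lower (6.57%). Over 9 tumors with the score, a fit added after seeing the data, *F7* went from 2.05 to 1.41 and *Thbd* from 2.10 to 0.79 on the log2 scale, both past an unadjusted p of 0.05 by edgeR but not the adjusted p. At that unadjusted p 5.04% of all genes were higher. *Plau* went from 0.56 to -0.44 and was lower at an unadjusted p of 0.05 (4.23% of all genes). *Pf4* went from 2.23 to 1.06, *F10* from 1.96 to 0.56, *F5* from 1.16 to 0.18 and *Plaur* from 1.03 to 0.17, and none of these 4 passed it. *F13a1* went from 0.62 to 0.11 and did not pass it either. *F3* shrank from -0.61 to -0.35 in that fit and no longer passed an unadjusted p of 0.05. Whether the score differs between the groups was not tested, and its values overlapped. The lowest and highest scores were 6.22 and 8.26 among KO tumors, against 5.28 and 7.82 among NTC tumors. Without NTC replicate 1 the highest NTC score was 6.83. As far as the score goes with the group, fits with the score cannot tell their parts apart.

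Within each library 6 ratios were formed and compared with two-sided exact permutation tests, on the log2 ratio of CPM + 0.5. The added 0.5 weighs on genes of low CPM, *Thbd* above all. The ratio of *Thbd* to *F3* sets a brake on thrombin against the trigger of coagulation. It was -1.88 ± 0.95 (SD, n = 5) in KO tumors and -3.78 ± 1.37 (SD, n = 5) in NTC tumors on the log2 scale. The difference of 1.90 had an exact permutation p of 0.0556 over 10 tumors and an adjusted p of 0.167 over the 6 ratios. With 0.1 or 2 in place of 0.5 the difference was 2.15 or 1.45. Without NTC replicate 1 every KO tumor, from -3.01 upward, was above every NTC tumor, from -3.37 downward. That difference was 2.38, with an exact permutation p of 0.0159 and an adjusted p of 0.0476.

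The ratio of *Thbd* to the summed endothelial genes was -3.98 ± 0.45 (SD, n = 5) in KO tumors and -4.91 ± 0.43 (SD, n = 5) in NTC tumors. Here NTC replicate 1, at -4.19, lay within the KO range, and the other NTC tumors, from -5.35 to -4.92, were all below it. The log2 difference was 0.93 (exact permutation p = 0.0238, adjusted p 0.143) over 10 tumors and 1.11 (exact permutation p = 0.00794, the smallest this design can give, adjusted p 0.0476) over 9. With 0.1 or 2 in place of 0.5 it was 1.16 or 0.52 over 10 tumors. *Plaur* to *Plau*, *F13a1* to the macrophage genes and *Pf4* to the macrophage genes differed by 0.20, -0.86 and -0.20 over 10 tumors, with exact permutation p-values of 0.429, 0.222 and 0.778. Over 9 tumors they differed by 0.37, -0.54 and 0.16, with exact permutation p-values of 0.111, 0.452 and 0.810. Relative to the macrophage genes, KO and NTC tumors overlapped in *Pf4* and *F13a1*.

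**Figure D4:**
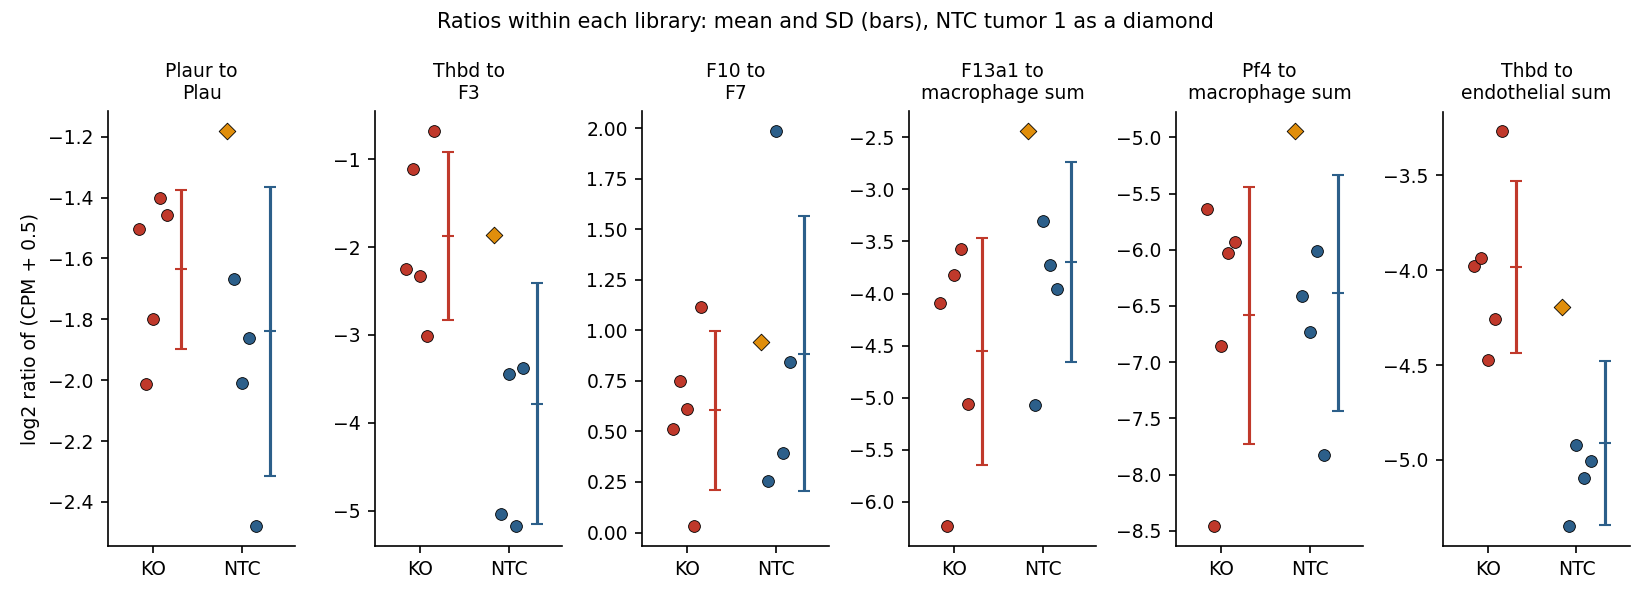
Log2 ratio of CPM + 0.5 in each tumor for the 6 ratios, with its own vertical axis in each panel. KO tumors are red, NTC tumors 2 to 5 blue and NTC tumor 1 an orange diamond, and bars give the mean and SD over 5 tumors. *Thbd* to *F3* and *Thbd* to the endothelial sum separate KO tumors from NTC tumors 2 to 5, with NTC tumor 1 among the KO values.

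Other genes of the same pathways were taken from lists made with earlier results of these data known. Of 32 such genes 21 were tested. The genes for fibrinogen chains and plasminogen (*Fga*, *Fgb*, *Fgg* and *Plg*) were under the filter, with 3, 9, 4 and 6 reads over all 10 tumors. By edgeR over 10 tumors at an unadjusted p under 0.05, 1 gene was higher in KO tumors (3.99% of all genes) and 1 was lower (4.85%), and 0 passed the adjusted p. The higher gene was *Plgrkt*, a plasminogen receptor, at a log2 fold change of 0.52 (SE 0.17, adjusted p 0.396), with 45.4 ± 8.24 CPM (SD) in KO tumors and 31.7 ± 7.56 in NTC tumors. The lower gene was *Tfpi*, the inhibitor of the tissue factor and factor VII complex, at -0.27 (SE 0.11, adjusted p 0.505), with 106 ± 13.4 CPM (SD) in KO tumors and 128 ± 12.8 in NTC tumors. Both kept their direction over 9 tumors, at 0.63 (SE 0.14, adjusted p 0.109 by edgeR) for *Plgrkt* and -0.36 (SE 0.11, adjusted p 0.173 by edgeR) for *Tfpi*.

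From each list 1 more gene is named, the one with the highest mean CPM over the 10 tumors, which is no ranking of levels per length. These were *Anxa5* among genes that control initiation, *F2r* among protease-activated receptors, *Lrp1* in the plasminogen system, *Fgl2* among fibrinogen and crosslinking genes and *Vwf* among contact and carrier genes. *Anxa5*, which binds exposed phosphatidylserine, had a log2 fold change of 0.13 (SE 0.20) over 10 tumors and 0.26 over 9. *F2r*, the thrombin receptor PAR1, had 0.84 (SE 0.45) and 1.06. *Lrp1*, an endocytic receptor that clears protease and inhibitor complexes, had 0.78 (SE 0.57) and 1.39, and *Fgl2*, a fibrinogen-like prothrombinase, had 1.04 (SE 0.62) and 1.36. *Vwf*, a platelet-tethering protein made by endothelium, had -0.44 (SE 0.30) and -0.61. Over 9 tumors 7 of the 21 genes were higher (12% of all genes) and 1 lower (8.1%) at an unadjusted p under 0.05, and 0 passed the adjusted p by edgeR. Besides *Plgrkt*, the higher genes were *F2r*, *Gas6*, *Lrp1*, *Mrc2*, *S100a10* and *Serpine2*, named after their values were seen, with log2 fold changes from 0.70 to 1.98. The median log2 fold change of the 21 genes was 0.28 over 10 tumors and 0.70 over 9.

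**Figure D5:**
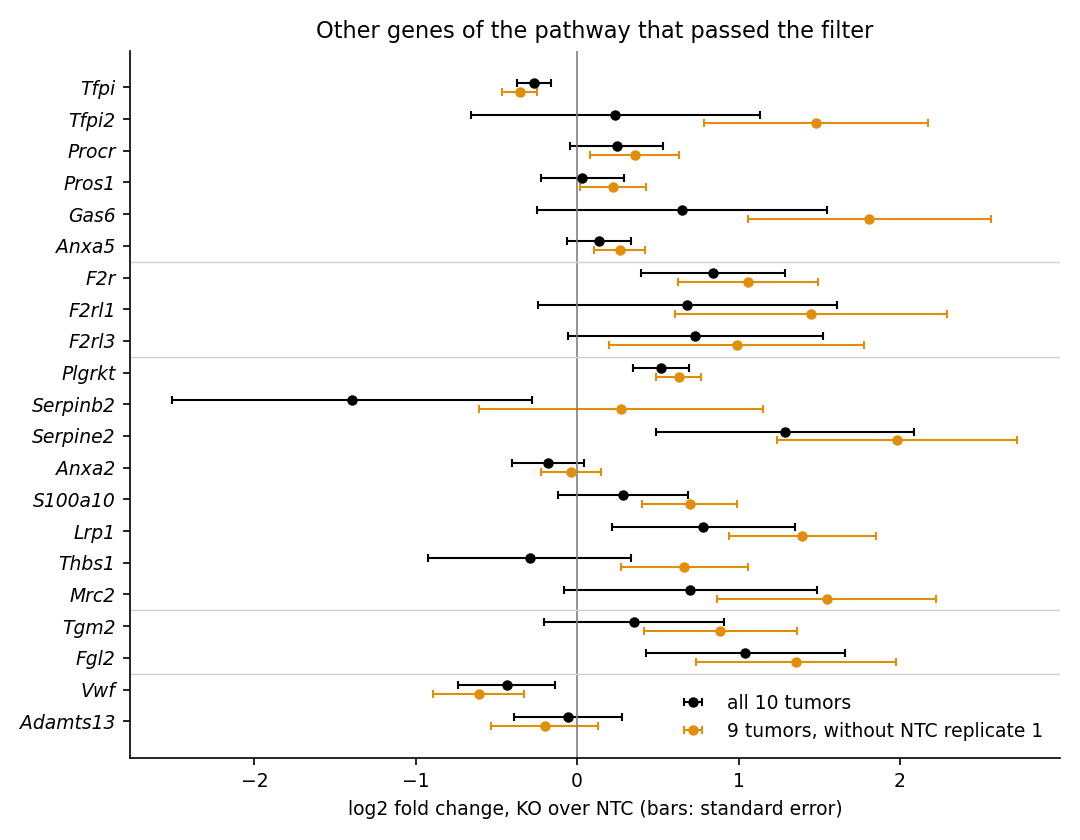
Log2 fold change of KO over NTC tumors with its standard error from edgeR for the 21 tested genes of the pathway lists, over all 10 tumors (black) and over 9 without NTC replicate 1 (orange). Gray lines part the lists. *Plgrkt* and *Tfpi* hold nearly the same value in both fits, while *Serpinb2* and *Thbs1* cross 0.

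Genes whose log2 CPM followed each of the 9 most closely over the 10 tumors were ranked by Pearson's r among 13204 named genes, as a description. For *F3* these were *Pkp2* (0.95), *Usp53* (0.93) and *Vegfa* (0.92), and for *F7* *Dhrs9* (0.99), *Cetn4* (0.96) and *Atf6* (0.95). For *F10* they were *Nipbl*, *Lilr4b* and *Sh2b2* (all 0.99), and for *F5* *Lilra6*, *Gapt* (both 0.98) and *Ear2* (0.97). *F13a1* was followed by *She* (0.99), *Cmah* and *Adamts9* (both 0.98), *Pf4* by *Ccr1*, *Hoxc8* and *Clec4n* (all 0.98), and *Thbd* by *Ptgir*, *Col6a1* and *Cacna2d1* (all 0.99). *Plau* was followed by *Iqgap1*, *Ppp1r18* and *Tfe3* (all 0.98), and *Plaur* by *Zfp36* (0.98), *Ctsl* and *Lhfpl2* (both 0.97). The points share library depth and leukocyte content. Ranked by Spearman's rho instead, 1 of the 3 names was kept for *F3* and *Plaur* and 0 for the other genes.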

How the data were processed

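RNA was sequenced from 10 tumors, and the authors deposited 1 table of raw counts per gene for each, without normalization. Per the labels, the tools were FastQC, Trimmomatic, HISAT2 and HTSeq with the mm10 build, and the annotation and strand setting are not given in the sources used here. The members and gene lists were chosen with earlier results of these data known. Counts were tested with edgeR 4.0.16 (quasi-likelihood, TMM scaling, filterByExpr, Benjamini-Hochberg over all genes tested) in R 4.3.3. Genes were called at an absolute log2 fold change above 1 and an adjusted p under 0.05. Alternatives were DESeq2 1.42.0, RLE scaling, other filters, robust dispersion, the replicate block, a leukocyte score as covariate and each tumor left out. CPM used TMM factors, log2 CPM a prior count of 2 and ratios a pseudocount of 0.5, with 0.1 and 2 as alternatives. Named genes were the 9 members, pathway genes at an unadjusted p under 0.05, the gene with the highest mean CPM of each list and the 3 genes most like each member. Gene positions and exon lengths came from GENCODE M21 on GRCm38. Reads outside genes, 17.5% to 42.9% of those listed, and HTSeq's other summary rows were left out of library sizes. The fit was tested on simulated data. Python 3.11.15 with pandas 2.3.3 and matplotlib 3.10.9 made tables and figures.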

Additional observations from a re-analysis of the deposited data

Results flagged for a closer look

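In NTC replicate 1, 6 genes lay so far above the other NTC tumors that the gap took most of the range of the group, past Dixon's 95% critical value for 5 tumors. They were *F7* at 27.6 CPM, *F10* at 53.5, *F13a1* at 612, *Pf4* at 107.5, *Thbd* at 10.6 and *Plaur* at 53.7 CPM. Of 30 sets of values checked 6 passed, and chance alone flags about 1 in 20. All 6 come from 1 library, which also had the fewest reads on genes, 42.9% of reads outside genes and a TMM factor of 0.628, against 0.968 to 1.11 in the others. The part of these library properties in the 6 values was not tested.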

How the results depend on the processing

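No edgeR fit, with or without any tumor, brought 1 of the 9 genes under an adjusted p of 0.05. With DESeq2 over 9 tumors 4 of the 9, all higher, and 4 of the 21 pathway genes, in either direction, passed, against 4.61% and 7.13% of all genes. At an unadjusted p 5 of the 9 were higher (14.6% of all genes) and 12 of the 21 passed in either direction (22.5%). Leaving out 1 tumor gave 0 to 5 genes of the 9 higher at an unadjusted p, 1 to 8 pathway genes, 0 to 2 genes of the 9 without overlap, 1 to 2 genes called higher over the whole table and 0 to 15 lower, against 1 and 2 in all 10 tumors. The highest counts came without NTC replicate 1, where 12% of all genes were higher and 8.1% lower at an unadjusted p and 2.71% were higher without overlap. Called genes, higher and lower, were 24 and 72 with DESeq2, 526 and 110 with DESeq2 over 9 tumors, 0 and 6 with at least 10 counts in every tumor, 4 higher with the leukocyte score, 5 and 6 with the score over 9 tumors, 4 lower with robust dispersion and 4 lower with no fold threshold. Pathway genes at an unadjusted p were 5 with no filter (8.83% of all genes), 5 with the score (13.1%) and 4 with the score over 9 tumors (9.27%). With the score 2 of the 9 genes were lower at an unadjusted p (6.57% of all genes), and with the score over 9 tumors 2 were higher (5.04%) and 1, *Plau*, was lower (4.23%).

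Directions turned for 5 genes. *F13a1* was at 0.62 without NTC replicate 1, 0.65 with DESeq2 over 9 tumors, 0.11 with the score over 9 tumors and 0.39 with the replicate block. With the score *F10* was at -0.022, *Pf4* at -0.29, *Plau* at -0.41 (-0.44 over 9 tumors) and *Plaur* at -0.28. Leaving out 1 tumor gave *F13a1* -1.28 to 0.62, *Pf4* -0.58 to 2.23, *Plau* -0.11 to 0.56 and *Plaur* -0.12 to 1.03. The ratio of *Pf4* to macrophage genes ranged from -0.56 to 0.27 (0.16 without NTC replicate 1), *Thbd* to *F3* from 1.56 to 2.38 (1.45 with a pseudocount of 2) and *Thbd* to endothelial genes from 0.75 to 1.11 (0.52 with 2, 1.16 with 0.1), with adjusted p under 0.05 only without NTC replicate 1. The causes were not tested.

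Replicate numbers do not pair the tumors: same-numbered tumors correlated from -0.29 to 0.63, and 3 of 10 correlated best with their own number. With the replicate block 0 genes were called lower and 1 of the 9, *F7* at 1.44, was higher at an unadjusted p, as were 5.05% of all genes. It changed no other call of the 9 genes. *Thbd* had under 100 reads in every NTC tumor, and *F5*, *F7* and *Pf4* in some tumors, which limits the precision of those values.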
